A study of Rattus norvegicus with 40 samples.

Results

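Circulating T cells of Dahl SS/JrHsdMcwiCrl rats (SS/CRL, called CRL here) were compared between HS chow and LS chow at 10 weeks of age. All 35823 regions of the deposited table that sets these groups side by side were used, out of 630893 regions in the 15 tables of the series. The series measured DNA methylation by reduced representation bisulfite sequencing in 40 libraries of blood and kidney T cells from CRL and Dahl SS/JrHsdMcwi rats (SS/MCW, called MCW here), which fall into 10 groups of 4 pools. A pool held 3 rats, so each side of the comparison rests on 4 pools and 12 rats. The HS group ate HS chow for 3 weeks, and the LS group ate LS chow. Both groups share the colony, the age and the labelled cell type, and neither carries a gene edit or another agent in the labels. The labels name circulating T-cells without saying how they were isolated or gated, and the sequencing lane of each library is not given. The other groups used beside them are MCW circulating T-cells and CRL and MCW kidney T-cells, all at 10 weeks of age, on LS chow or on HS chow for 3 weeks, with 4 pools each. HS and LS are read here as high and low salt.

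DNA methylation in mammals sits mainly on cytosines that are followed by guanine, called CpGs. CpG-rich promoters are usually unmethylated, whereas gene bodies and the DNA between genes are usually methylated. At imprinted genes 1 parental copy is methylated and the other is not, so that control regions lie at intermediate levels. The Dahl SS rat is an inbred model in which dietary salt raises blood pressure and injures the kidney, and T cells are known to take part in that injury. Reduced representation sequencing reads the fragments that a CpG-cutting enzyme leaves, so promoters and other CpG-rich DNA are covered best.

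A region is a stretch of at least 5 CpGs, given with its rn5 position and with 1 methylation level per group, the authors' mean over the 4 pools. No spread over the pools stands beside these levels, and the read depth is unknown, so no interval is given. Differences are HS minus LS in percentage points. A region is named called where the adjusted Mann-Whitney p of the authors' deposited table was under 0.05 and its difference was at least 10 points. The p-values reach 3.9e-14 in the authors' deposited table, whereas the smallest two-sided p of an exact rank test between 4 and 4 pools is 0.0286. Pools were therefore not the units of that test, and which units it ran over is not stated. The p-values speak of these 8 libraries and do not measure the spread between pools or rats. Each adjusted p printed below carries that limit. In pooled cells, a shift in the mix of cell types and a change within each cell cannot be told apart.

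Promoters are shown for Calca, Rfk, the Nnat/Blcap locus and Gnas, each of which had a called region that the table classes as promoter, to show how CpGs are spread in such DNA. Each line holds the 250 bases before a RefSeq transcription start (assembly GRCr8), 5′ to 3′ on the gene's strand, with every CpG in capitals. The measured rn5 stretches were not located within them, so no methylation level is tied to a base shown. For the Nnat/Blcap locus the start shown is that of Blcap, and none is shown for Nnat. Of the 21 genes named at called promoter regions, 12 have a sequence in the RefSeq table.
Calca promoter: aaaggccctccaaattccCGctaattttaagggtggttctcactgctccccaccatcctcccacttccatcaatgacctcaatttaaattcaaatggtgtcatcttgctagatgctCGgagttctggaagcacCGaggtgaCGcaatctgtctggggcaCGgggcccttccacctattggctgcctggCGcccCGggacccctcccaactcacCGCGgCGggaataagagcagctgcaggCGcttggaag
Rfk promoter: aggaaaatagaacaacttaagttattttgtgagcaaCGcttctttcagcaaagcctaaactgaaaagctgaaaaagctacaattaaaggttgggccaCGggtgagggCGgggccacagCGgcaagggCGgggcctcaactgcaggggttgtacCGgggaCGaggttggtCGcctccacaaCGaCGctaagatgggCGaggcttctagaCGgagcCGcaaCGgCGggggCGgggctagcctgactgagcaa
Blcap promoter: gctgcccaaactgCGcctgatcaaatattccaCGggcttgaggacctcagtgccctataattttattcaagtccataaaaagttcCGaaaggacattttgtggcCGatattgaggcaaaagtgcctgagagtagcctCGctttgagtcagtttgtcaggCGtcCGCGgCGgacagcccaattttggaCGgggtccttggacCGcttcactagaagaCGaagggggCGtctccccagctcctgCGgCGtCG
Gnas promoter 1: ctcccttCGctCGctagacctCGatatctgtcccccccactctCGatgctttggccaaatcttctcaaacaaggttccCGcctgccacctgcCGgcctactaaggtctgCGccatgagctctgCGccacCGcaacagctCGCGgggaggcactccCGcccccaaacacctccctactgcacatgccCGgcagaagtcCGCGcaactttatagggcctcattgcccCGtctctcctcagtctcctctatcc
Gnas promoter 2: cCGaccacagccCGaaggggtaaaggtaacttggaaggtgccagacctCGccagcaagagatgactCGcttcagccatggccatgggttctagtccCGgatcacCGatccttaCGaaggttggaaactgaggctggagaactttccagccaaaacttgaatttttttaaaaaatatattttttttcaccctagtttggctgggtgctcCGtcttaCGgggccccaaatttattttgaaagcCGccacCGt
Gnas promoter 3: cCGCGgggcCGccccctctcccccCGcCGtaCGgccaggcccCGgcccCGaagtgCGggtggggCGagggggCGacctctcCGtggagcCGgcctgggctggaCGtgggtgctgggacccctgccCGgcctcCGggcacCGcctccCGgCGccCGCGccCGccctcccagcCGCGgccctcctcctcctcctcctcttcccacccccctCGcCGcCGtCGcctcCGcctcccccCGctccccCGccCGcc
The Calca promoter holds 11 CpGs in 250 bases, and 33.6% of the 33469 promoters in the RefSeq table hold at least as many. The Rfk and Blcap promoters hold 16 each, as does the first Gnas promoter, a number that 23.8% of promoters reach. The other two Gnas promoters hold 11 and 32, and 4.13% of promoters hold at least 32. The median promoter holds 5, and the median over the 14 promoters of genes named at called promoter regions is 15. Only stretches of at least 5 CpGs are tested, which favours CpG-rich promoters. The median over tested promoters was not counted, so these numbers do not set called promoters apart. The motif TGACGTCA, a palindrome known to bind cyclic AMP response factors, is in none of the 6 windows and in 1.59% of all promoters on either strand. That says only that these letters are not in these windows.

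Before the results, 3 features of the deposited values need stating. The first is that 2193 regions were listed under 0.0001% in both groups, and 92.1% of them have an adjusted p under 0.05 in the authors' deposited table. They make up 2019 of the 5342 regions under that limit, and none can be called because no difference of 10 points exists there. The next is that 814 sets of regions carry the same values at different positions. Of the called regions, 11 fall into 4 such sets, and counting each set once left 137 called regions, 49 higher and 88 lower. The last is that the authors' difference departs from the gap between the group levels by over 0.2 points in 3.48% of regions, all with at least 10 CpGs.

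The methylation landscape of blood T cells was nearly the same on both chows. Averaged over all regions, the level was 40.0% with LS and 39.9% with HS chow, and 92.1% of regions lay within 5 points of each other. The quartiles of the difference were -1.61 and 1.32 points, and its 1st and 99th percentiles were -8.47 and 7.55. The Pearson correlation of HS with LS levels across the 35823 regions was 0.997, a description over regions that share libraries. In all, 335 regions differed by at least 10 points, 129 upwards and 206 downwards.

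Of these, 144 were called, 0.402% of the tested regions. The 49 higher on HS chow make 0.137% and the 95 lower make 0.265%. By genes, 30 of 7584 contained a called increase (0.396%) and 39 a called decrease (0.514%). Only 1 called increase and 9 called decreases reached 20 points. The median called increase was 12.8 points and went from a median of 33.5% to 49.3%. The median called decrease was 12.6 points in size, from 60.8% to 46.0%.

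**Figure D1:**
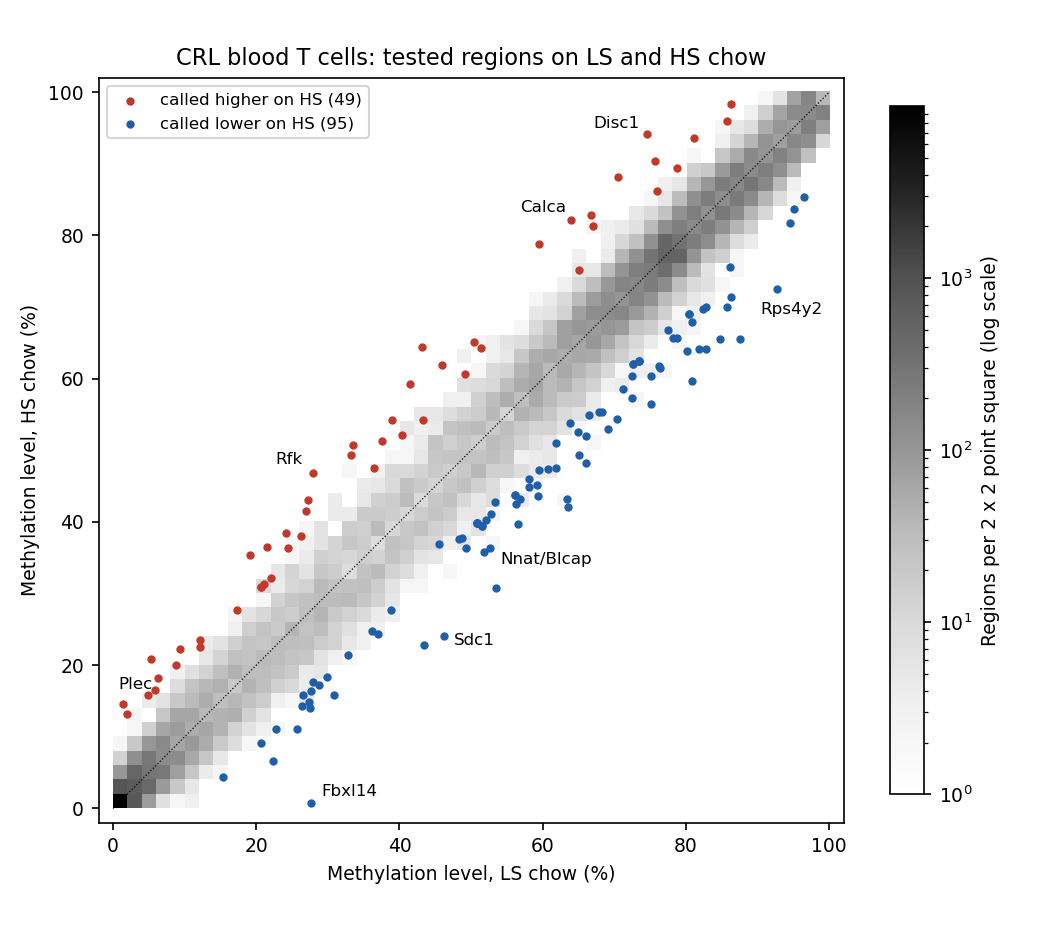
Methylation level of the 35823 tested regions in CRL blood T cells on LS chow (x axis, %) and HS chow (y axis, %). Grey squares count regions on a log scale, red dots are the 49 regions called higher and blue dots the 95 called lower; most regions lie on the diagonal and the called ones form 2 thin bands beside it, with Fbxl14 farthest below.

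Calls were spread over the classes that the tables assign. Promoter regions, labelled TSS, had a mean level of 9.11% on LS and 9.07% on HS chow, and 9 higher and 11 lower calls among 11150 regions (0.179%). Gene body regions, labelled Intragenic, went from 61.0% to 60.8% with 19 higher and 30 lower among 7705 (0.636%). Intergenic regions went from 50.8% to 50.6% with 21 higher and 54 lower among 16968 (0.442%). Promoters were mostly unmethylated, with 74.1% of their regions under 5% in both groups. Among regions with a mean level between 20% and 80%, where a change of 10 points can occur in either direction, the called share was 1.17% of promoter, 1.22% of gene body and 0.845% of intergenic regions. In that band, intergenic calls were lower in 49 cases and higher in 11, and promoter calls were lower in 7 and higher in 6. These counts take copies at different positions separately, and every called copy is a decrease.

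Calls differed in number and direction with the level of the region. No region with a mean level under 5% was called among 13728, and none at or over 95% among 1193. At such means the 2 levels cannot lie more than 10 points apart, so the call rule itself leaves these classes without calls. Between 5% and 20%, 10 rose and 6 fell. Between 20% and 40%, 13 rose and 15 fell among 1731 (1.62%). Between 40% and 60%, 13 rose and 36 fell among 1929, the highest called share at 2.54%. Between 60% and 80%, 6 rose and 33 fell among 8066, of which 22 of the falling regions were intergenic. Of the called regions that began under 20% on LS chow, 12 rose and 1 fell. Choosing by the LS level favours this split, because a region that begins under 10% cannot fall by 10 points. Copies at different positions are counted separately in these classes. Every called copy is a decrease with a mean level between 40% and 80%, so the falling counts there hold some values more than once. No test compares these classes.

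**Figure D2:**
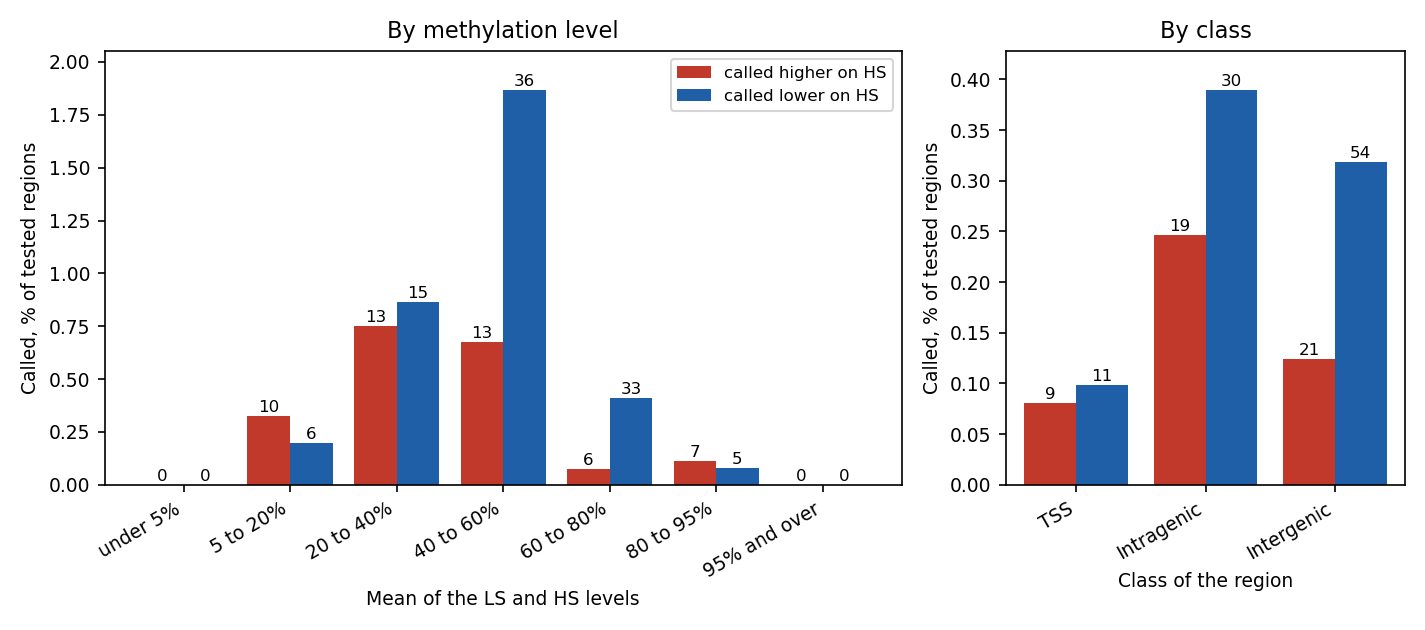
Called regions as a percentage of tested regions (y axes), by the mean of the LS and HS levels (left) and by class (right); red bars are called higher and blue bars called lower on HS chow, with the number of regions above each bar. Decreases outnumber increases most between 40% and 80%, by 36 to 13 and by 33 to 6, and the ends of the scale hold no call. Copies at different positions are counted separately.

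Along the genome, chromosomes 11, 16 and 17 held no call. The highest called shares were on chromosome 20 with 1 higher and 8 lower (0.844%), chromosome 19 with 4 and 5 (0.831%) and chromosome 4 with 4 and 10 (0.723%). Copies are counted separately in these shares. They include 19:38661572 and 19:39033302, which carry the same values, and the 4 called Hoxaas3 regions of chromosome 4 described below. Chromosome 10 had 2 higher and 11 lower, and the X chromosome 0 and 2.

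The largest decrease was at the promoter of Fbxl14, an F-box protein that selects substrates for a ubiquitin ligase and is known for the turnover of Snail factors. The region (chr4:219073749-219073822, 7 CpGs) was at 27.7% with LS and 0.827% with HS chow. The authors' deposited table gives it an adjusted p of 2.59e-08 and a q-value of 0.0001. The promoter region 45 bp before it was at 6.49% on LS and 0.432% on HS chow, and the authors' deposited table lists an adjusted p of 9.01e-05 and a difference of -6.05 points for it. The next promoter regions lay near 0 on both chows, at 0.0962% and 1.41% and at 1.04% and 2.80%. The change was thus measured at the last by position of the 4 tested Fbxl14 regions, beside others at low levels. No Fbxl14 region beyond it was tested.

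Among the 15 largest decreases, those at Sdc1, Gal3st1, Cacna1c and Bc1 lay in gene bodies. Sdc1 encodes syndecan-1, a heparan sulfate proteoglycan of the cell surface, and its region (chr6:43683673-43683762, 5 CpGs) went from 46.2% to 24.0%. The Sdc1 stretch 7 bp before it was at 23.5% on LS and 16.7% on HS chow and was not called. Gal3st1 encodes the enzyme that makes sulfatide, and its region (chr14:84928763-84928806, 5 CpGs) fell from 43.4% to 22.9%. A Gal3st1 neighbour of 23 CpGs, 17 bp before, was at 33.5% and 25.8%, and the authors' deposited table lists a difference of -8.85 points for it (adjusted p = 0.0192). Cacna1c encodes the pore of the L-type calcium channel, and 1 of its 16 regions (chr4:216573431-216573509, 5 CpGs) went from 84.8% to 65.6%. The other 15 differed by between -2.81 and 3.54 points. Bc1, a noncoding RNA known as a repressor of translation in neurons, went from 75.1% to 56.5% (chr5:159192635-159192755), whereas the Bc1 stretch 16 bp before it was at 25.5% on LS and 34.8% on HS chow and was not called.

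The promoter region of Rps4y2, a copy of the gene of ribosomal protein S4, was one of the longer called regions. It (chr4:246879768-246879900, 12 CpGs) fell from 92.8% to 72.6%, and the authors' deposited table lists an adjusted p of 4.6e-11 and a q-value of 0.00091 for it. Its neighbour 68 bp away was at 83.0% and 79.2% and was not called.

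Of the 15 largest decreases, 9 had no gene. The largest of these (chr12:356009-356084, 7 CpGs) went from 53.4% to 30.8%. On chromosome 20 a region of 10 CpGs (chr20:9426826-9426952) fell from 87.6% to 65.6%. The remaining 7, at 12:43324801, 6:141922862, 4:29704099, 5:148829223, 5:169135995, 9:113891829 and 19:31556421, began between 56.6% and 82.8% and fell by 16.9 to 21.5 points.

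The largest increase had no gene either. It lay at chr4:20036858-20036986 (7 CpGs) and rose from 43.2% to 64.4%. Next came Disc1, a scaffold protein best known in the developing brain, whose gene body region (chr19:68763285-68763333, 6 CpGs) rose from 74.6% to 94.2%. The authors' deposited table lists adjusted p = 1.33e-05 for it. The Disc1 region 95 bp further on was at 79.4% on LS and 84.8% on HS chow, and the authors' deposited table lists adjusted p = 0.0748. The other 5 Disc1 regions, of which the promoter ones were under 1%, differed by between -0.99 and 1.08 points.

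Rfk encodes riboflavin kinase, which makes the flavin cofactor FMN, and its promoter region (chr1:243806100-243806135, 5 CpGs) rose from 27.9% to 46.9%. A called region without a gene on chromosome 3 (chr3:96412184-96412228, 6 CpGs) had similar levels, 27.2% and 43.0%. In the MCW kidney table the Rfk region and this one carry the same levels, 23.0% on LS and 32.4% on HS chow, so the pair is not read as independent here, and whether their reads are shared was not tested.

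Calca encodes calcitonin and the vasodilator peptide CGRP. Its promoter region (chr1:191163945-191163966, 5 CpGs) rose from 63.9% to 82.2%, and the authors' deposited table lists adjusted p = 0.000691. The Calca stretch 7 bp before it was at 68.9% and 80.7%, a difference of 11.7 points that was not called, as the authors' deposited table lists adjusted p = 0.0696. A stretch 1002 bp before was at 3.97% and 6.74%. The promoter class of this gene thus holds stretches at high and at low levels.

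Nr4a3 encodes a nuclear receptor that is induced when the T cell receptor is engaged. Its gene body region (chr5:68305445-68305489, 7 CpGs) rose from 19.2% to 35.4%, and the authors' deposited table lists adjusted p = 0.00981. The flanking Nr4a3 stretches, 43 bp before and 82 bp after, were at 19.6% and 24.2% and at 21.0% and 30.6%, and neither was called. Cldn4 encodes the tight junction protein claudin-4, and its promoter region (chr12:26761869-26761910, 5 CpGs) rose from 39.0% to 54.3%. The other Cldn4 region, 25 bp away, was at 40.0% and 50.3% and was not called, as the authors' deposited table lists adjusted p = 0.397. Smad6, an inhibitory Smad of BMP signalling, rose from 66.8% to 82.8% at 1 of 6 regions (chr8:68672680-68672822). Pcdhga3, a protocadherin of the gamma cluster, rose from 45.9% to 62.0% at its promoter region (chr18:30514824-30515007, 8 CpGs). Zbtb8b, a zinc finger gene, rose from 70.6% to 88.2%, and its stretches 16 and 639 bp before were at 78.5% and 85.4% and at 43.4% and 53.5%. Nfxl1 rose from 41.5% to 59.3%.

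**Figure D3:**
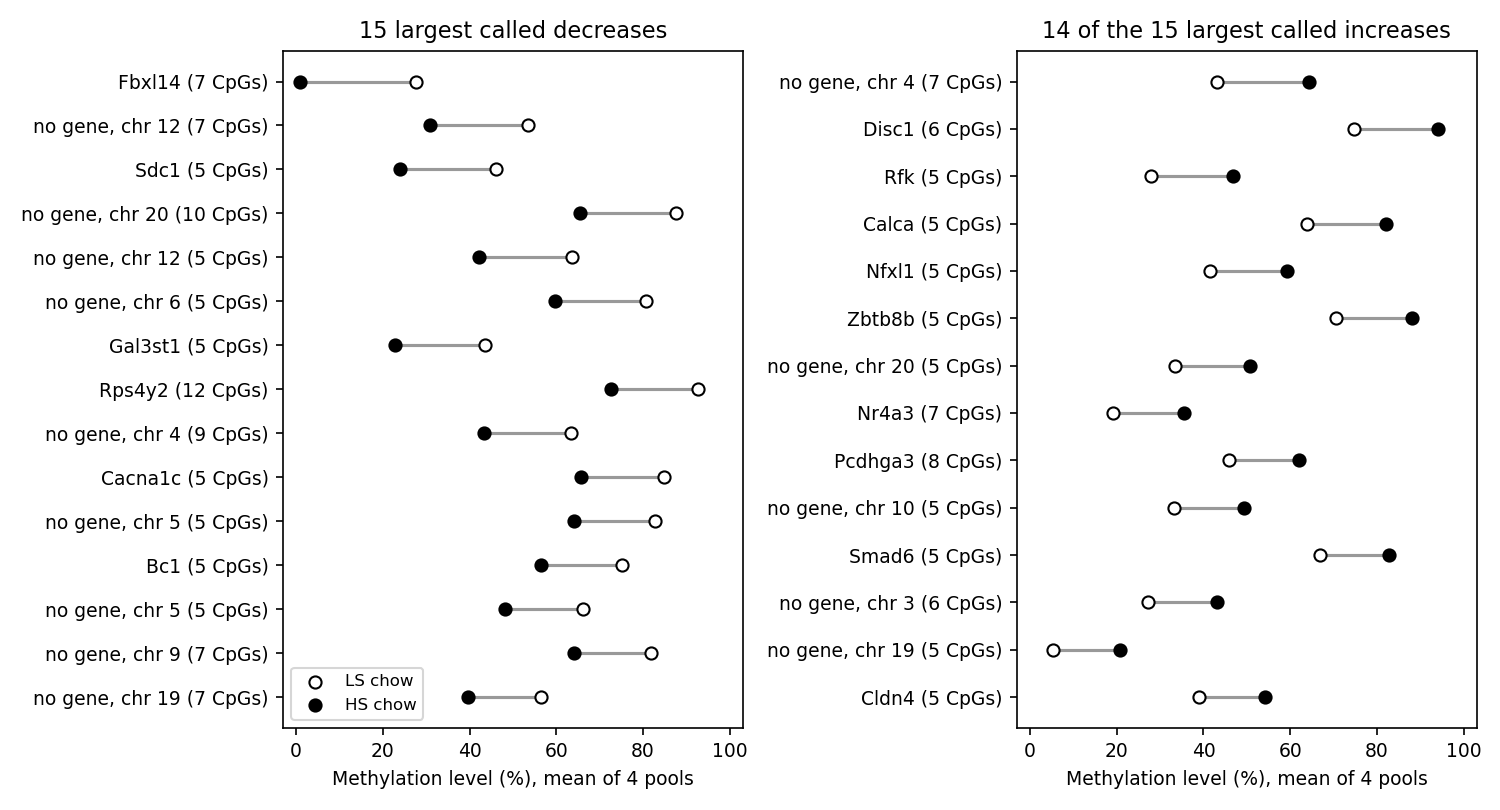
The 15 largest called decreases (left) and 14 of the 15 largest called increases (right) in CRL blood T cells, 1 row per region with its gene and number of CpGs; open dots are the LS level and filled dots the HS level (x axis, %, the authors' mean of 4 pools, with no error bar because no pool values are given). Fbxl14 starts at 27.7% and ends at 0.827%, while most other rows move within the middle of the scale.

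Among called regions, 7 also passed a q-value under 0.05, a further column of the authors' deposited table. They are Fbxl14, Rps4y2, a pair of Hoxaas3 regions, Sbk1, Tnfaip8 and a region without a gene. Sbk1, a protein kinase gene, fell from 95.1% to 83.7% over 16 CpGs (chr1:68161468-68161619). Tnfaip8, a regulator of apoptosis induced by TNF, rose from 26.2% to 38.1% over 13 CpGs of its promoter (chr18:43961721-43961837). The region without a gene (chr2:268714882-268714987) rose from 1.98% to 13.2%.

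Genes with several called regions were Hoxaas3, Msl3l2, Cd99l2 and Gnas. Hoxaas3, an antisense RNA of the HoxA cluster, has 4 called regions, but they are the same stretches listed at 2 positions of chromosome 4. Its levels went from 56.1% to 43.8% over 9 CpGs (chr4:146839302-146839363) and from 51.5% to 39.5% over 5 CpGs (chr4:146839627-146839665). The 31 CpGs between them were at 39.0% and 35.4%. Msl3l2, related to a subunit of a histone acetyltransferase complex, fell from 32.8% to 21.4% over 15 CpGs (chr20:39332334-39332490). A second Msl3l2 region of 17 CpGs (chr20:39332874-39333116) was at 45.6% and 36.9%, and its call rests on the difference of -10.4 points in the authors' deposited table, since the levels fell by 8.70 points. The 30 CpGs between the Msl3l2 regions were at 33.4% and 30.8%. Cd99l2, a membrane protein gene, also has a pair of near-identical regions on chromosome 15, at 72.6% and 62.0% on LS and HS chow.

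The nearest tested neighbours of the called regions were looked up. A tested neighbour lay within 2000 bp of 85 called regions, at a median gap of 39 bp. The nearest neighbour had the same sign in 56 of the 85, made up of 17 of 29 for increases and 39 of 56 for decreases. It was itself called in 2 of the 85, where 0.402% of all tested regions were called. How often neighbours share a sign over all regions was not counted. The median neighbour difference was 1.52 points beside an increase and -3.19 points beside a decrease. Of the called regions, 93 hold 5 CpGs, the fewest a region may hold, and 12 hold at least 10.

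Imprinted genes held the largest number of called genes of the lists. Of 64 listed genes 35 had a tested region, 127 regions in all. Calls upwards touched 1 gene and calls downwards 3, beside 0.396% and 0.514% of all tested genes. By regions, 1 was called higher and 2 lower among the 127. Over all regions, the called share was 1.62% at mean levels between 20% and 40% and 2.54% between 40% and 60%, where imprinted control regions usually lie. The list was not compared with regions of like level, so it is not set apart here. Their median difference was -0.126 points, beside -2.5e-05 over all 18855 regions with a gene. The called genes are Gnas in both directions and the Nnat/Blcap pair, which share 1 region. Nnat is a paternally expressed gene that lies within Blcap.

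The Nnat/Blcap promoter region (chr3:161555673-161555735, 5 CpGs) fell from 52.6% to 36.4%, and the authors' deposited table lists adjusted p = 0.000392. Neither flanking stretch was called. An 18-CpG region that ends 18 bp before it was at 35.6% with LS and 35.4% with HS chow. A 5-CpG region that begins 2 bp after it was at 43.0% and 39.2%. On HS chow the 3 stretches thus lay between 35.4% and 39.2%, whereas on LS chow they ran from 35.6% to 52.6%.

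Gnas encodes the stimulatory G protein alpha subunit from a complex imprinted locus with several promoters, 3 of which are shown above. It had 17 tested regions over 52.2 kb, of which 10 were higher and 7 lower on HS chow. A promoter region (chr3:178438683-178438754, 7 CpGs) fell from 59.5% to 47.3%, and the authors' deposited table lists adjusted p = 0.00132. A gene body region 2585 bp further on (chr3:178441339-178441514, 9 CpGs) rose from 37.6% to 51.3%, and the authors' deposited table lists adjusted p = 1.33e-05. Between these opposite changes lay a promoter region of 47 CpGs, the longest of the locus, at 35.6% on LS and 38.8% on HS chow, for which the authors' deposited table lists adjusted p = 0.0521. A further group of promoter regions near 46 kb from the first was also mixed. There the 22 CpGs at 178472119 were at 29.7% and 35.2%, and the 5 CpGs at 178472706 were at 16.6% and 7.51%. Both have an adjusted p under 0.05 in the authors' deposited table and differences under 10 points. The Gnas regions at 178473172 and 178473276 were under 1% on both chows.

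**Figure D4:**
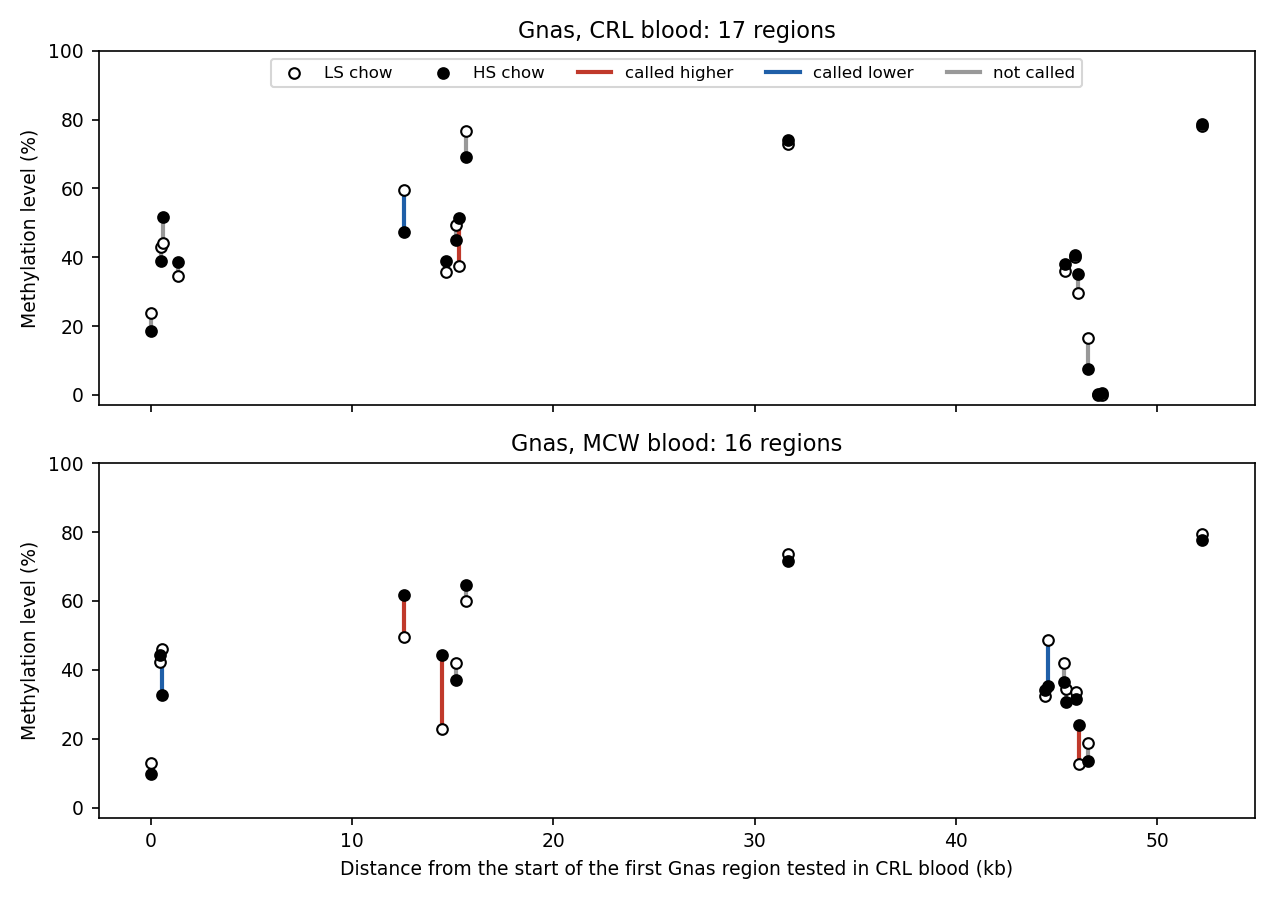
Methylation level (y axis, %) of the Gnas regions against distance from the first one tested in CRL blood (x axis, kb), in CRL blood (top, 17 regions) and MCW blood (bottom, 16 regions); open dots are LS and filled dots HS chow, joined by a red line where called higher, blue where called lower and grey where not called. The region near 12.6 kb falls from 59.5% to 47.3% in CRL blood and rises from 49.6% to 61.8% in MCW blood.

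Several imprinted genes lay just under the minimum difference, named here after their values were seen. Zrsr1 had 1 promoter region at 42.7% and 52.6% over 11 CpGs and another at 40.8% and 33.3% over 26 CpGs. Igf2r was at 44.4% and 35.5% over 17 promoter CpGs, Grb10 at 46.0% and 55.6%, and Trappc9 at 29.5% and 39.2%. These 5 regions have adjusted p-values from 1.33e-05 to 0.0433 and differences between 8 and 10 points in size in the authors' deposited table. As at Gnas, neighbouring Zrsr1 stretches differed in opposite directions. With a minimum of 5 points, 4 of the 35 tested imprinted genes would contain a called increase and 5 a called decrease, beside 1.11% and 1.36% of all 7584 genes at that limit. Those genes are not matched to the imprinted ones by level.

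Of the 136 tested regions of the 4 T cell lists, 1 was called (0.735%), where the 0.402% over all regions would give 0.547. The counts of these lists are too small to set them apart from other genes. Of the genes of T cell receptor and T cell identity, 16 of 34 had a tested region, and 0 of their 53 regions were called, with a median difference of -0.173 points. The promoter of Cd8a, which marks cytotoxic T cells, was at 47.7% with LS and 46.9% with HS chow in 1 region and at 12.1% and 16.0% in the other. The largest difference of the list was at the promoter of Zbtb7b, the factor that sets the CD4 lineage, at 66.0% and 46.8%, for which the authors' deposited table lists adjusted p = 0.0748. The Zbtb7b stretch beside it was at 30.8% and 33.5%. Gata3, the master factor of type 2 helper cells, was at 16.6% and 26.6% in a gene body region, a difference of 9.97 points in the authors' deposited table. Zbtb7b and Gata3 were picked out after their values were seen. Helper lineage, cytokine and effector genes (12 of 38 tested) and trafficking genes (9 of 23) had 0 calls, and activation and checkpoint genes (14 of 29) had Nr4a3 alone. The medians of these 3 lists lay between -0.141 and 0 points.

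Genes linked to salt, renin and angiotensin and oxidants were tested for 25 of 45. They had 0 called regions among 61, beside 0.402% of all tested regions, with a median difference of -0.0998 points. That count is too small to set the list apart from other genes. The largest difference of the list was at an Npr1 promoter region, at 30.4% on LS and 20.0% on HS chow. It was not called, as the authors' deposited table lists an adjusted Mann-Whitney p of 0.132, and other Npr1 regions differed in both directions. Regions of Nox4 and Ncf1, subunits of the superoxide-producing NADPH oxidases, passed the p limit with differences under 10 points. These genes were picked after their values were seen. The Nox4 promoter region was at 23.0% on LS and 13.9% on HS chow, for which the authors' deposited table lists a difference of -9.15 points (adjusted p = 0.0276). An Ncf1 gene body region of 10 CpGs was at 38.0% and 29.5%, for which the authors' deposited table lists a difference of -8.44 points (adjusted p = 5.01e-06). The next Ncf1 region differed the other way, at 28.0% on LS and 31.1% on HS chow.

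Genes of the DNA methylation machinery were tested for 10 of 19 and had 0 calls among 22 regions. Dnmt1, the maintenance methyltransferase, was at 91.3% and 90.1% in its 1 region. The 3 gene body regions of the de novo enzyme Dnmt3a lay between 76.3% and 86.2% on LS chow and differed by 1.11 to 2.94 points. The promoter region of Dnmt3b, the other de novo enzyme, was listed at 0% and 0.703%. One-carbon metabolism (10 of 22 tested, 25 regions), innate and inflammasome genes (12 of 26, 23 regions) and Wnt signalling (40 of 49, 126 regions) had 0 calls. Homeobox developmental regulators (55 of 72, 206 regions) had 1 gene called higher, Meis1, which rose from 65.0% to 75.2% in a gene body region. Ubiquitin ligases and adaptors (18 of 34, 50 regions) had 1 called lower, Fbxl14. Over all 18 lists, 6 of 865 regions were called (0.694%), where the 0.402% over all regions would give 3.48. The counts of single lists are too small to set them apart from other genes.

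The label of the cells was checked against marker genes, whose promoters tend to be unmethylated where the gene is used. The 15 promoter regions of T cell genes had a median of 12.1% on LS and 16.0% on HS chow, with 8 under 20%. The promoter medians of 4 other lists were lower: myeloid 0.621% and 0.753% (16 regions), erythroid and platelet 2.01% and 3.44% (6), endothelium and stroma 2.84% and 4.44% (10) and kidney epithelium 5.92% and 5.58% (10). Natural killer genes had 2 promoter regions with medians of 50.4% and 48.0%, and B cell genes had gene body regions alone. Promoter levels at these regions therefore do not set T cells apart, and the defining genes Cd3e, Cd4 and Lck had no tested region. The 6 lists of other cell types held 0 called regions among 89, where the share over all regions would give 0.358 (B cell 3 of 14 genes tested, myeloid 7 of 24, natural killer 3 of 10, erythroid and platelet 3 of 17, endothelium and stroma 11 of 16, kidney epithelium 11 of 20). Their medians ran from -2.07 points for natural killer genes to 0.955 for B cell genes. The part of the cell mix in the called differences was not tested.

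The called regions were then looked up in the other salt comparisons (overlap of at least 1 bp), with copies at different positions counted separately. MCW blood shares no library with CRL blood. There, 0.200% of 33567 regions were called higher and 0.268% lower. Of the 49 increases 27 were tested in MCW blood, where 10 were also higher, 1 was called higher and 3 were called lower, with a median difference of -4.77 points. Of the 95 decreases 54 were tested there, where 31 were also lower, 4 were called lower and 4 were called higher, with a median of -4.02 points. The shared increases are 2.04% of the CRL list and 1.49% of the MCW list, and the shared decreases 4.21% and 4.44%. Over the 2955 regions at the same position in both blood tables, the LS levels correlated at 0.994 and the differences at 0.0188, both descriptions across regions.

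Fbxl14 and Nnat/Blcap were among the 4 decreases called in both colonies. At the same Fbxl14 position MCW blood was at 15.3% on LS and 4.55% on HS chow. At Nnat/Blcap, a wider MCW region of 14 CpGs was at 49.5% and 33.7%. The other shared decreases have no gene, at 3:65897941 with 87.3% and 76.7% and at 4:197362179 with 93.7% and 79.8% in MCW blood. The call at 4:197362179 in CRL blood was lost when p-values were adjusted again without the regions at 0 in both groups. These 4 decreases did not all recur in MCW kidney. There the region at 3:65897941 was called higher, with a difference of 28.6 points. The others were not called, at 7.29 points for Fbxl14, 4.16 for 4:197362179 and -8.15 for Nnat/Blcap. Of the regions called in opposite directions, the Gnas promoter region at 178438693 rose from 49.6% to 61.8% in MCW blood. Snx20, a sorting nexin of leukocytes, fell from 48.7% to 37.8% in CRL blood (chr19:30435664-30435736, 15 CpGs) and rose from 31.5% to 43.6% in MCW blood. The largest CRL increase, at 4:20036858, was at 46.7% and 32.8% in MCW blood. The region at 20:10851757 rose from 33.5% to 50.7% in CRL blood and fell from 57.3% to 34.5% in MCW blood. The region at 4:182119619, which rose in CRL blood, was at 29.1% and 15.7% in MCW blood, and those at 19:10290058 and 2:180916233, which fell in CRL blood, were at 41.0% and 51.6% and at 34.4% and 51.9%. The difference between the colonies' responses was not tested.

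Kidney T cells of the CRL groups were measured in other libraries. In CRL kidney 3.29% of 39016 regions were called higher and 0.428% lower. Of the blood increases 23 were tested there, 16 were also higher, 2 were called higher and 0 lower. Of the blood decreases 37 were tested, 29 were higher in kidney on HS chow, 11 were called higher and 2 lower. The share of all CRL kidney regions that were higher was not counted, so no background stands beside these sign counts. The 11 hold both regions of the Cd99l2 pair, and both Lca5 and the region at 8:90428888, which carries the same blood values. Among regions that fell in blood and overlap an increase in CRL kidney, Lca5 rose there from 37.3% to 60.6%, Zfp608 from 21.5% to 33.6% and Cacna1b from 16.2% to 26.5%. The Cd99l2 pair was at 36.7% and 49.8% and at 24.0% and 40.4% in CRL kidney, called higher at both positions. In blood, Lca5 fell from 80.4% to 69.1%, Zfp608 from 70.3% to 54.4% and Cacna1b from 52.8% to 41.1%. The Zfp608 call in blood was lost under the same renewed adjustment. At each of Lca5, Zfp608 and Cacna1b, blood lay above kidney on LS chow. Rps4y2 and Sbk1 overlap less. The Rps4y2 region of CRL kidney, at 28.3% and 53.4%, shares 17 bp with the blood region, and that of Sbk1, at 57.9% and 79.5%, shares 73 of 152 bp. These 2 are the opposite calls that an overlap of at least 50% of the shorter region leaves out, which lowers their number from 11 to 9.

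In both CRL tissues, 4 regions were called in the same direction. The region at 12:356009, at 53.4% and 30.8% in blood, was at 63.8% and 40.3% in CRL kidney and called lower in both. In MCW kidney the overlapping region was at 13.8% on LS and 39.8% on HS chow and was called higher. The second Msl3l2 region overlaps one at 32.0% and 10.0% in CRL kidney, where the difference in the authors' deposited table is -33.3 points. Its overlapping region in MCW kidney was at 16.9% and 30.1% and was called higher. A gene body region that the table assigns to Nr3c1, the glucocorticoid receptor, and Spry4, an inhibitor of growth factor signalling, rose from 24.2% to 38.5% in blood (chr18:32283447-32283566) and from 34.5% to 52.4% in kidney. For Nr3c1/Spry4, the overlapping region in MCW kidney was 10.3 points higher on HS chow and was not called. The region at 1:151975034 was called higher in all 4 salt comparisons. It went from 50.3% to 65.2% in CRL blood and from 50.0% to 68.2% in MCW blood. In kidney it went from 25.1% to 44.2% in CRL and from 61.5% to 78.5% in MCW rats. Its adjusted p in CRL blood is 0.0346 in the authors' deposited table, and it became 0.0538 when p-values were adjusted again without the regions at 0 in both groups.

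In MCW kidney 13.0% of 34115 regions were called higher and 0.235% lower. Of the blood increases 29 were tested there, 26 were also higher, 9 were called higher and 1 lower. Of the blood decreases 67 were tested, 61 were higher in MCW kidney, 25 were called higher and 0 lower. The 25 are not all distinct. They hold a set of 4 copies, each at 32.7% on LS and 47.2% on HS chow in MCW kidney. They also hold a set of 3, each at 25.9% and 39.1%, and the Cd99l2 pair. The region at 4:29704099, which fell from 63.4% to 43.3% in CRL blood, rose from 28.7% to 41.7% in CRL kidney and from 17.2% to 49.5% in MCW kidney. The calls of MCW kidney as a whole were 4424 higher and 80 lower. Regions that rose and regions that fell in CRL blood were thus both mostly higher in MCW kidney. How many of all MCW kidney regions were higher was not counted.

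**Figure D5:**
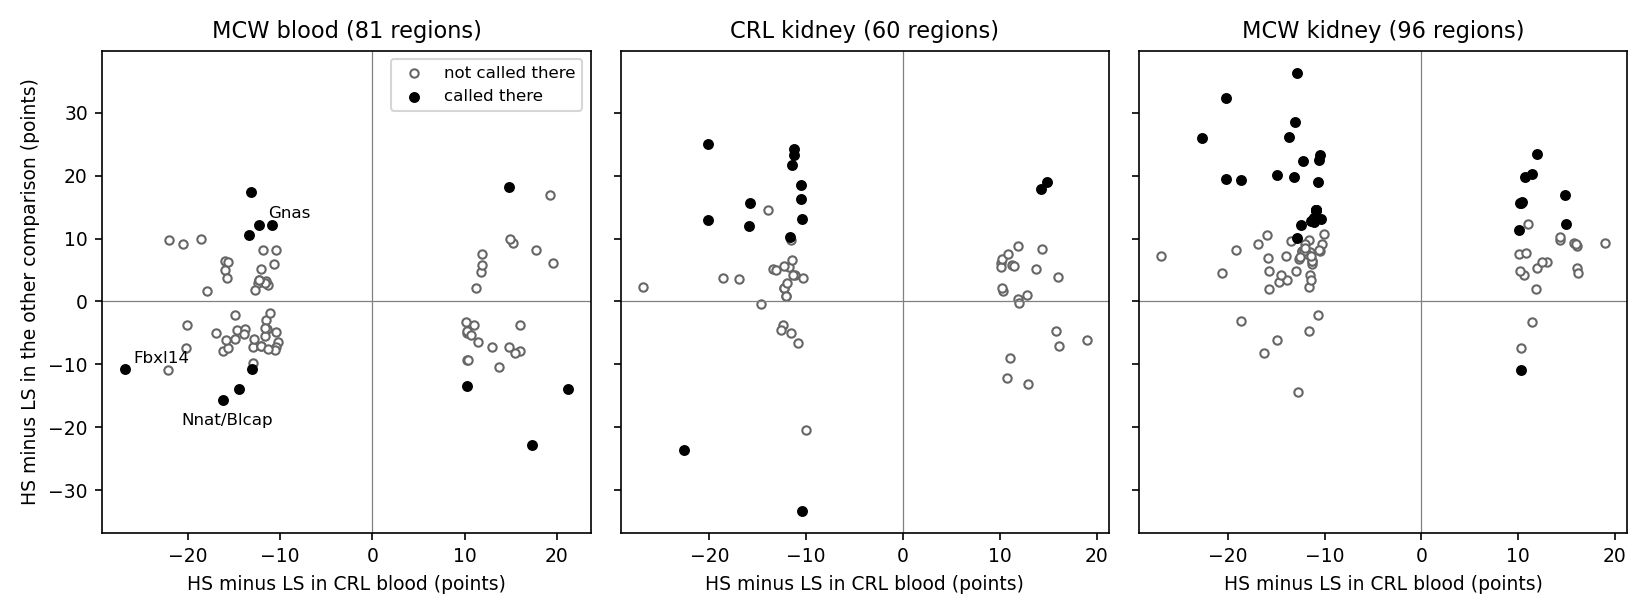
HS minus LS difference (points, the authors' column) of the regions called in CRL blood (x axes) and of the overlapping region in MCW blood, CRL kidney and MCW kidney (y axes), with filled dots where that table also calls the region. Regions that fell in CRL blood lie on both sides of 0 in MCW blood (31 of 54 below), and mostly above it in CRL kidney (29 of 37) and MCW kidney (61 of 67). Regions that rose in CRL blood also lie mostly above 0 in CRL kidney (16 of 23) and MCW kidney (26 of 29), and in MCW blood 10 of 27 do. In both kidney comparisons called increases outnumber called decreases over all regions, and the share of all regions above 0 was not counted.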

How the data were processed

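Reduced representation bisulfite libraries of rat T cells were sequenced paired-end (100 cycles), per the labels' protocols. Positions are on rn5, which the submitters' processing notes name. Which aligner or region caller made the tables is not given in the sources used. Whether starts count from 0 or 1 is not stated either. The authors deposited methylation levels as a fraction between 0 and 1 per region and group, printed here in percent, with their difference on the same scale. The deposited tables also hold p-value columns (Mann-Whitney, adjusted Mann-Whitney and 2DKS) and a q-value column. The adjusted column equals the Benjamini-Hochberg adjustment over the table to within 5e-16. There are no pool values and no depth, so no model was fitted, and no replicate error can be given.

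The authors' difference was turned to HS minus LS. Regions were called at an adjusted p under 0.05 and at least 10 points. Regions of different tables were matched by an overlap of at least 1 bp. Classes and gene names are those of the tables. The steps were tested on simulated data. Python 3.11.15, pandas 2.3.3, numpy 2.4.6 and matplotlib 3.10.9 were used. Genes were named for the 15 largest called changes in each direction, called members of the 18 lists, genes with several called regions, called regions also called in MCW blood or CRL kidney, a q-value under 0.05, and all regions of Nnat, Blcap, Gnas, Fbxl14, Disc1, Dnmt1, Dnmt3a, Dnmt3b and Cd8a. Among the largest increases, 1 is not reported here. The regions compared, the thresholds and the lists were chosen with earlier results of these data known. Other minimum differences, p limits, CpG numbers, scales and overlaps were tried as alternatives.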

Additional observations from a re-analysis of the deposited data

How the results depend on the processing

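The counts depended on the limits. Against 49 higher and 95 lower, they were 1124 and 2081 with no minimum difference (leaving out regions at 0 in both groups), 149 and 246 at 5 points, 1 and 9 at 20 points, 30 and 53 at an adjusted p under 0.01, 2 and 5 by the q-value under 0.05, and 4 and 8 with at least 10 CpGs. Decreases outnumbered increases under each. The difference of the level columns gave 49 and 94, with Msl3l2 at 39332874 under the minimum at -8.70 points and the other 143 regions still past it. Chosen after seeing the data, counting copies once gave 49 and 88, and adjusting p again without the regions at 0 in both groups gave 46 and 85. The 13 calls lost by that adjustment include Zfp608, Fut4, Ppp1r7 and 1:151975034. The mean difference of -0.172 points was -0.163 weighted by CpGs, -0.152 with at least 10 CpGs, -0.324 with at least 10% in 1 group, -0.175 by the authors' column and -0.170 without X. At 5 points the called share became 0.664% of TSS, 1.57% of Intragenic and 1.18% of Intergenic regions. With the lists at 5 points, also chosen after seeing the data, imprinted genes had 4 called higher and 5 lower, and the 17 other lists together 4 and 8. Requiring an overlap of 50% of the shorter region left the counts called in both blood tables as they were and lowered the CRL kidney opposite calls from 11 to 9.

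No paired analysis was possible because the tables hold group means and no value per pool. For the same reason leaving out single pools was not run. The depth behind a level is unknown, and most calls rest on 5 CpGs.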

Other observations

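The remaining called regions at promoters are given here for completeness, named after their values were seen. Plec, the gene of the cytoskeletal linker plectin, rose from 1.34% to 14.6%, a promoter region near 0 on LS chow. Hoga1, an enzyme of hydroxyproline breakdown, rose from 12.2% to 22.5%, and Cuedc1 from 85.8% to 95.9%. A region of Rn28s, the 28S ribosomal RNA gene, rose from 20.6% to 30.9%, and a region without a gene at 14:46765669 had nearly the same values. Over the 236 regions named for ribosomal RNA the mean was 28.3% on LS and 27.8% on HS chow, and the Rn28s region was the 1 called among them.

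Promoter regions also fell at Inhbb, which encodes an inhibin and activin subunit, from 20.6% to 9.19%, and at Fut4, a fucosyltransferase of leukocytes, from 26.5% to 15.8%. Ccer1 fell from 85.7% to 70.1%, Tmem88 from 94.6% to 81.8%, Tst from 72.4% to 60.4% and Mn1 from 52.1% to 40.3%. In gene bodies, the receptor tyrosine phosphatase genes Ptprs and Ptprm rose from 81.2% to 93.6% and from 27.0% to 41.6%. Tnfaip2, a gene induced by TNF, rose from 51.3% to 64.3% over 13 CpGs. Slit3, a secreted guidance protein, fell from 76.4% to 61.5%, and Kcng1, a potassium channel subunit, from 75.1% to 60.3%.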
